A study of Mus musculus with 2 samples.

Results

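The genes Mir21a, Mir142, Mir146 (which gives miR-146a), Mir146b, Mir150, Mir155 and Mir223 are linked to microglia, blood leukocytes and inflammation. They were taken by their GENCODE M21 symbols and are 7 of the 2202 miRNA genes in the tables. The tissue was left cerebral cortex of adult mice of the strain B6CASTF1/J, an F1 cross of C57BL/6J and CAST/EiJ, at 18 to 20 months of age, with no treatment or engineered allele named, and it was profiled by microRNA sequencing. The labels give 1 group of 2 biological replicates, each with 1 technical replicate, with RNA below 30 nucleotides kept from total RNA. The sex field says female and a free-text line says male, and both libraries carry the same donor identifier, so separate animals are not certain. A difference between the libraries may be technical. The p-values of the binomial test used below measure counting noise alone and no spread between animals. No other age, tissue or treatment is in the series, so the values below are levels in aged cortex and the spread between 2 libraries.

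MicroRNAs are short RNAs cut from a hairpin precursor, and they lower the output of messenger RNAs that pair with their seed, the bases 2 to 8 from the 5′ end. Microglia, the resident macrophages of the brain, share many miRNAs with circulating myeloid cells. In these cells miR-155 is known as a promoter of inflammatory signalling. miR-146a is known as a brake on it that targets Traf6 and Irak1, which act downstream of Toll-like receptors. miR-142 is found across blood lineages, miR-223 in granulocytes and other myeloid cells, and miR-150 in mature lymphocytes. miR-21 is made by many cell types and is known to be induced in reactive glia.

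The mature sequences show which of these miRNAs can share targets and which reads could be confused. They are from RefSeq (GRCm38.p6), written 5′ to 3′ with the seed in capitals. For the inflammatory regulators, miR-146a and miR-146b are set side by side because they share a seed.
mmu-miR-146a-5p: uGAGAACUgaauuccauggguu
mmu-miR-146b-5p: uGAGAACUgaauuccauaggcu
mmu-miR-155-5p: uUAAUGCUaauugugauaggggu
For the lineage miRNAs of blood cells both arms are given where the table holds them, because the counts are per hairpin gene and do not tell the arms apart.
mmu-miR-142a-5p: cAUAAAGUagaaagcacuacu
mmu-miR-142a-3p: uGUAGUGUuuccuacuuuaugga
mmu-miR-223-5p: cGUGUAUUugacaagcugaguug
mmu-miR-223-3p: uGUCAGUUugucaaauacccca
mmu-miR-150-3p: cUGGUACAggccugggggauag
miR-21a is shown with its relatives miR-21b and miR-21c, because near copies could share its reads.
mmu-miR-21a-5p: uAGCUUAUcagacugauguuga
mmu-miR-21b: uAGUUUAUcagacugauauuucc
mmu-miR-21c: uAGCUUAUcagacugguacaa

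The 13 mature sequences matched, both arms of 6 genes and the 3p arm of Mir150, had 12 different seeds. Among these 13, the seed held by 2 of the genes was GAGAACU of miR-146a-5p and miR-146b-5p. Counted from 1 at the 5′ end of miR-146a-5p, these 2 differ by the substitutions G18A and U21C, with 20 of 22 bases the same. Mir146 and Mir146b were also the only 2 of the 6 genes with a hairpin in the RefSeq table to share 20 bases or more with another hairpin, with a longest shared stretch of 21 bases. For reads of the 5p arms, their separation in the counts rests on the 2 substituted bases. The seed AGCUUAU of miR-21a-5p is also that of miR-21c, whereas miR-21b has the seed AGUUUAU. Mir21b and Mir21c had no count in either library. With a limit of 3 counts, this allows levels of up to 0.581 CPM (replicate 1) and 0.673 CPM (replicate 2).

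Levels are given as CPM, sense counts per 1000000 sense counts of all miRNA genes in the library. A read covers a whole mature miRNA, so levels were not divided by length. The libraries held 5166667 and 4459993 sense counts, which were 34.8% and 34.9% of all reads, and 41.8% and 46.4% of reads mapped to several places and entered no gene's count. Of the cell type lists, all 5 neuron genes and both oligodendrocyte genes were expressed, at 34538 ± 3121 and 3904 ± 58.7 CPM (mean ± SD, n = 2). None of the 3 genes of the neuronal miR-124 was, and these have the same mature sequence, so their reads map to several places. The lists were chosen with earlier results of these data known, so these levels are no check of the tissue label.

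All 7 genes were expressed, meaning 2 CPM or more in both libraries, beside 18.6% of all miRNA genes (409 of 2202). The levels covered a wide range, from 5.24 CPM for Mir146b to 1447 CPM for Mir21a. Against a median of 88.9 CPM over expressed genes, Mir21a, Mir150 and Mir146 lay above and Mir142, Mir155, Mir223 and Mir146b below. Together the 7 genes held 14424 counts in replicate 1 and 18073 in replicate 2, or 0.279% (95% exact interval 0.275% to 0.284%) and 0.405% (0.399% to 0.411%) of sense counts. Intervals cover counting error only.

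**Figure D1:**
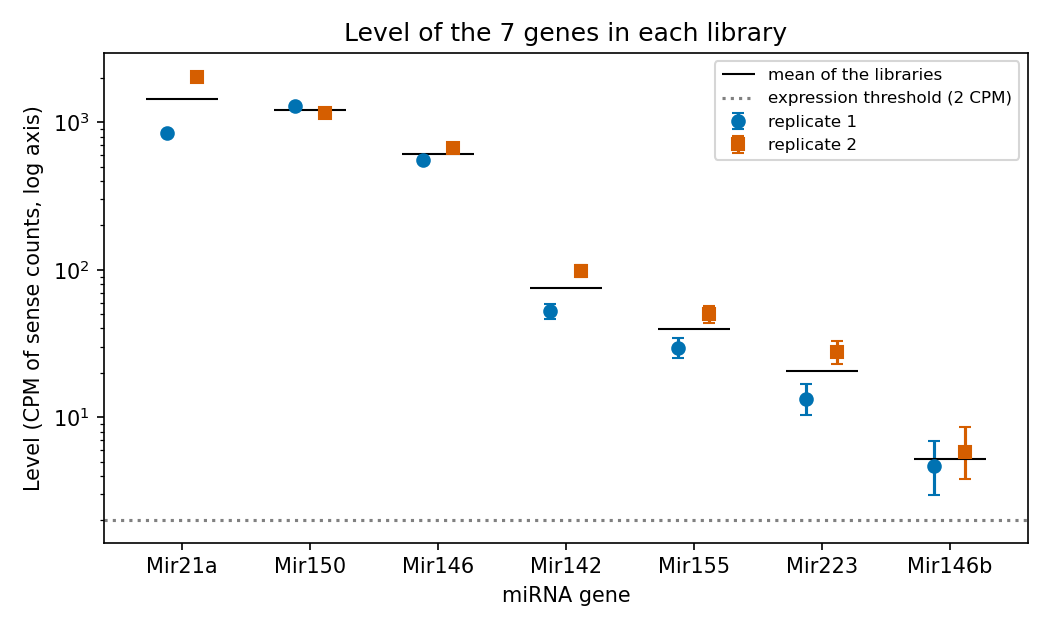
Level of each of the 7 genes in CPM on a log axis, with circles for replicate 1, squares for replicate 2, their 95% exact counting intervals and a bar at the mean. Mir21a and Mir150 change places between the libraries, and the other 5 genes keep their order down to Mir146b near 5 CPM.

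Mir146 (ENSMUSG00000065601.1; mm10 chr11:43374397-43374461, minus strand) overlapped no other annotated gene. Its 2872 counts in replicate 1 came to 555.9 CPM and its 2994 counts in replicate 2 to 671.3 CPM, with a mean of 613.6 ± 81.6 CPM (SD, n = 2). This placed it below 108 of the 409 expressed genes, and it varied little, with replicate 2 the higher. Mir146b (ENSMUSG00000070127.2; chr19:46342762-46342870, plus strand), in an intron of Mfsd13a, had 24 and 26 counts, or 4.65 CPM (95% exact interval 2.98 to 6.91) and 5.83 CPM (3.81 to 8.54). The intervals overlap, so a difference between the libraries was not detectable at this depth. Of the counts of both genes, whose 5p arms hold the shared seed, Mir146b held 0.829% (0.532% to 1.23%) in replicate 1 and 0.861% (0.563% to 1.26%) in replicate 2. The balance of the pair in counts was thus alike in both libraries, at 119.7 and 115.2 Mir146 counts per Mir146b count. These counts do not tell the arms apart, and reads of the 5p arms are separated by the 2 substituted bases alone.

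Mir155 (ENSMUSG00000065397.1; chr16:84714140-84714204, plus strand) lies within an exon of its host transcript Mir155hg. It had 153 and 223 counts, or 29.6 CPM (95% exact interval 25.1 to 34.7) in replicate 1 and 50.0 CPM (43.7 to 57.0) in replicate 2. The counting intervals do not overlap and replicate 2 was the higher. Mir146 thus had more counts than Mir155 in both libraries, although read counts of different miRNAs also depend on how well each is ligated and copied, which was not tested.

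Mir142 (ENSMUSG00000105196.1; chr11:87756864-87756927, plus strand) lies in an intron of Mir142hg. It had 270 counts (52.3 CPM, 95% exact interval 46.2 to 58.9) in replicate 1 and 440 (98.7 CPM, 89.7 to 108.3) in replicate 2. Replicate 2 was again the higher, and the intervals do not overlap. On the other strand at the same place the annotation has Mir142b (ENSMUSG00000065420.2; chr11:87756841-87756955, minus strand), and the mature sequences of the 2 genes are complementary. The hairpin of Mir142 is shown with its mature arms in capitals, because the counts below turn on it, followed by mature miR-142b with its seed in capitals.
Mir142 hairpin: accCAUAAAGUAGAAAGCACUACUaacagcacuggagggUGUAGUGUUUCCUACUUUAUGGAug
mmu-miR-142b: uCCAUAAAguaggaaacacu
The reverse complement of all 20 bases of miR-142b is found in miR-142a-3p, at bases 4 to 23. Mir142b had no sense count in either library, and its antisense counts of 270 and 440 equal the sense counts of Mir142. The column without strand listed 0 at both genes, so a level for Mir142 exists only in the stranded counts.

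Mir223 (ENSMUSG00000076066.1; chrX:96242817-96242926, plus strand) overlaps an exon of F630028O10Rik, a non-coding gene. It had 69 counts (13.4 CPM, 95% exact interval 10.4 to 16.9) in replicate 1 and 123 (27.6 CPM, 22.9 to 32.9) in replicate 2. The myeloid miRNA was thus the lowest of the blood lineage genes in both libraries and higher in replicate 2, with intervals that do not overlap.

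Mir150 (ENSMUSG00000065495.1; chr7:45121757-45121821, plus strand) overlapped no other annotated gene, the nearest being Gm45552 at 96 bases. Its 6643 counts in replicate 1 came to 1286 CPM and its 5149 counts in replicate 2 to 1154 CPM, with a mean of 1220 ± 92.8 CPM (SD, n = 2). Mir150 was the 1 gene of the 7 with the higher CPM in replicate 1, and its libraries differed least relative to the mean. It stood far above Mir142 (52.3 and 98.7 CPM), which is found across blood lineages. As for Mir146 and Mir155, such a comparison also depends on how well each miRNA is ligated and copied. Which cells of the cortex gave the Mir150 counts was not tested.

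Mir21a (ENSMUSG00000065455.1; chr11:86584067-86584158, minus strand) lies within an exon of a transcript of Vmp1, a gene of autophagy. It stood at 850.3 CPM (95% exact interval 825.3 to 875.8) in replicate 1 and 2044 CPM (2003 to 2087) in replicate 2, with a mean of 1447 ± 844 CPM (SD, n = 2). Replicate 2 was far the higher, and no other of the 7 genes had so large an SD relative to its mean. Mir21a made up 30.5% (29.7% to 31.2%) of the counts of the 7 genes in replicate 1 and 50.5% (49.7% to 51.2%) in replicate 2. Without it the summed level of the other 6 was 1941 and 2008 CPM, so the sum of all 7 differed between the libraries mainly at Mir21a. Among these 6, the lower CPM of Mir150 in replicate 2 offset higher values of the others. Without Mir150 as well, the remaining 5 genes summed to 655.7 and 853.4 CPM.

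**Figure D2:**
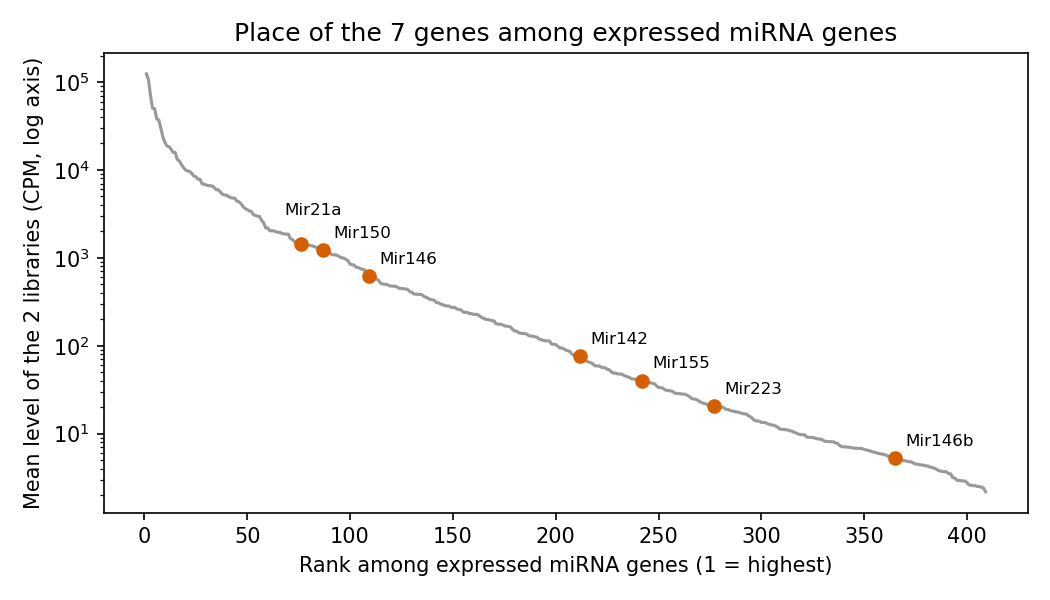
Mean level in CPM on a log axis of all 409 expressed miRNA genes in order, with the 7 genes as points. Mir21a, Mir150 and Mir146 lie in the upper part of the curve, with 75, 86 and 108 genes above them, and Mir146b near its lower end with 364 above.

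The order of the means was Mir21a, Mir150, Mir146, Mir142, Mir155, Mir223 and Mir146b. Mir21a and Mir150 did not differ beyond their spread: Mir150 was the higher in replicate 1 and Mir21a in replicate 2. Mir142 exceeded Mir155 in both libraries, by 1.76 and 1.97 times, and its lower value (52.3 CPM) lay above the higher value of Mir155 (50.0 CPM). The difference of their means was 35.6 CPM beside a combined SD of 35.8 CPM. Mir155 exceeded Mir223 by 2.22 and 1.81 times, with a difference of 19.3 CPM beside a combined SD of 17.6 CPM. The combined SD takes the genes as independent, although Mir142, Mir155 and Mir223 were all higher in replicate 2 of the same libraries. The largest step was from Mir146 to Mir142, at 10.6 times in replicate 1 and 6.80 times in replicate 2. With 2 libraries an exact sign-flip permutation test cannot go below p = 0.5, so these steps were not tested.

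The libraries were compared by the log2 ratio of replicate 2 to replicate 1 after TMM scaling, which makes the bulk of genes equal between them. Compared with raw totals, TMM moved all ratios by 0.13 and DESeq2 size factors moved them by 0.20. An exact binomial test with Benjamini-Hochberg adjustment over 438 genes asked whether a ratio exceeded counting noise. It compares these 2 libraries and not conditions, and it passed 67.1% of all genes tested, 32.6% as higher in replicate 2 and 34.5% as higher in replicate 1. It passed 5 of the 7 genes, all as higher in replicate 2, a total share near the 67.1% of all genes.

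Mir21a had the largest log2 ratio of the 7, at 1.40 (95% exact interval 1.34 to 1.45), followed by Mir223 at 1.17 (0.74 to 1.62; adjusted p = 7.37e-08, exact binomial test). Mir142 stood at 1.05 (0.82 to 1.27; adjusted p = 3.89e-21) and Mir155 at 0.88 (0.58 to 1.19; adjusted p = 7.86e-09) in the same exact test. Mir146 had a smaller ratio of 0.40 (0.33 to 0.48; adjusted p = 5.14e-26), which passed through its larger counts. Mir146b had a ratio of similar size, 0.46, but with so few counts it did not pass (-0.40 to 1.32; adjusted p = 0.384, exact binomial test). Mir150 had a ratio of -0.03 (-0.08 to 0.03; adjusted p = 0.409), did not pass, and had a ratio of 0.05 with DESeq2 size factors. The other 6 ratios kept their direction with total counts and with DESeq2 size factors.

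The members' ratios were also set beside the spread over all expressed genes. Their median log2 ratio was 0.88, beside -0.04 over the 409 expressed genes, and their median absolute ratio was 0.88 beside 0.54. Mir21a, Mir223 and Mir142 lay over 2-fold apart, which 24.2% of expressed genes did. A total of 52 expressed genes had a larger absolute ratio than Mir21a, 69 than Mir223, 88 than Mir142 and 397 than Mir150. When edgeR's exact test took the common spread of the 2 libraries (a coefficient of variation of 44.8%) for every gene, none of the 7 passed (0.491% of all genes did), and none had an unadjusted p under 0.05. In bulk tissue, fewer cells of a type and less RNA per cell cannot be told apart.

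**Figure D3:**
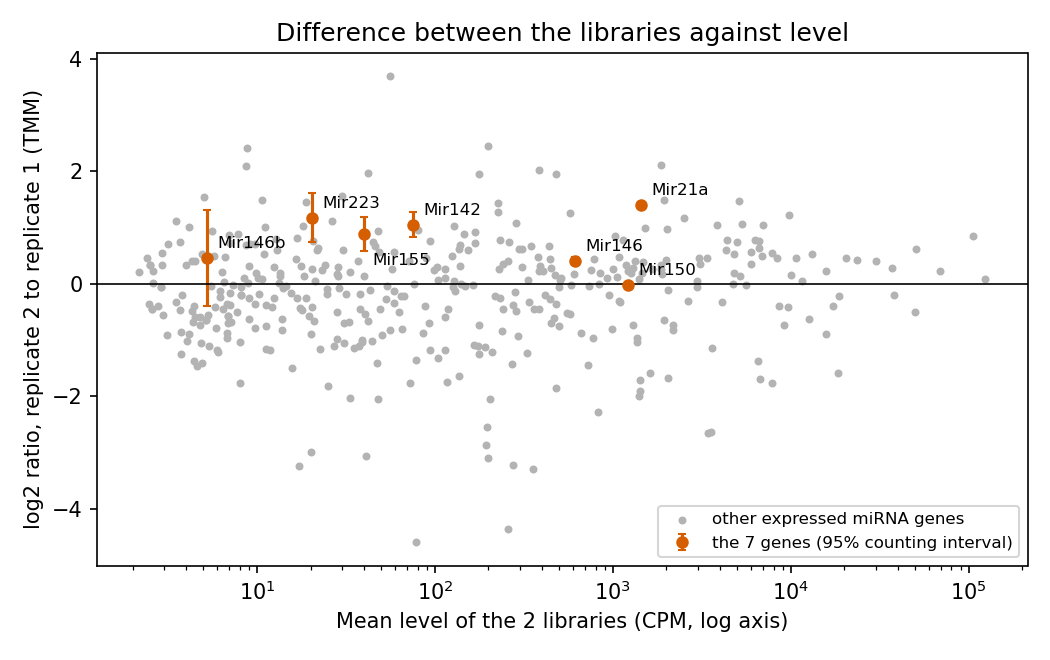
TMM-scaled log2 ratio of replicate 2 to replicate 1 against mean level in CPM on a log axis, with grey points for other expressed miRNA genes and labelled points with 95% counting intervals for the 7 genes. Of the 7, 6 lie above 0, and Mir150 lies at -0.03 here and at 0.05 with DESeq2 size factors.

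Marker lists of other cell types also differed between the libraries, and their part in the ratios of the 7 genes was not tested. Of all genes tested, 32.6% passed the binomial test as higher in replicate 2 and 34.5% as higher in replicate 1. In edgeR's exact test with the common spread no gene of these lists passed, and Mir145a and Mir34c had an unadjusted p under 0.05. The 3 measured red cell genes, all expressed, summed to 122.1 CPM (replicate 1) and 71.5 CPM (replicate 2), and 2 of them, Mir144 and Mir486, passed as lower in replicate 2. The third, Mir451a, had 243 and 177 counts and did not pass (log2 ratio -0.11). The 2 mural cell genes summed to 5077 and 9896 CPM, both passing as higher in replicate 2 like Mir21a. The endothelial gene Mir126a was lower in replicate 2 by the test, at 21257 and 10411 CPM, and the choroid plexus and ciliated epithelium list of 4 genes summed to 723.9 and 1111 CPM, with 2 higher in replicate 2 by the test. The neuron list stood at 36745 and 32332 CPM and the oligodendrocyte list at 3945 and 3862 CPM.

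Other miRNAs of the same pathways were taken from lists. Of the leukocyte and macrophage list of 3 genes, 1 was expressed: Mir342, a miRNA of an intron of Evl, at 4754 and 3490 CPM, lower in replicate 2 by the test (log2 ratio -0.32). Mir511, which lies within the macrophage mannose receptor gene Mrc1, had only 5 and 11 counts, and Mir147, induced in macrophages through Toll-like receptors, had 12 and 4. Both were below 2 CPM in 1 of the libraries, so the macrophage miRNAs of this list were near the limit of the depth.

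Of the 11 genes on the list responsive to Toll-like receptors, 10 were expressed. Of these, 4 passed as higher in replicate 2 and 4 as higher in replicate 1, beside 32.6% and 34.5% of all genes. Its level of 97205 ± 19831 CPM came mostly from genes that are abundant in cortex, led by Mir132 (38067 ± 6199 CPM), which neuronal activity also induces. Its median log2 ratio was 0.31, with Mir125a at -1.58 and Mir203 at 1.94 as its ends. The Mir9 and Mir125b genes of this list are copies, and reads that fit several copies would enter no gene's count. All 4 genes of the myeloid differentiation list were expressed, and Mir221, Mir222 and Mir322 passed as higher in replicate 2 while Mir503 did not pass, beside the 32.6% of all genes passing in that direction. In edgeR's exact test with the common spread, none of the 4 passed or had an unadjusted p under 0.05. Mir221 led that list at 3628 and 6951 CPM, and the list's median log2 ratio was 0.92.

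For microglial quiescence the list held the 3 genes of miR-124, which is known to keep microglia in a resting state. They had 24 counts in replicate 1 and 9 in replicate 2 in all, and none was expressed. Since the 3 copies have the same mature sequence and reads that map to several places enter no gene's count, these counts are uncertain.

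**Figure D4:**
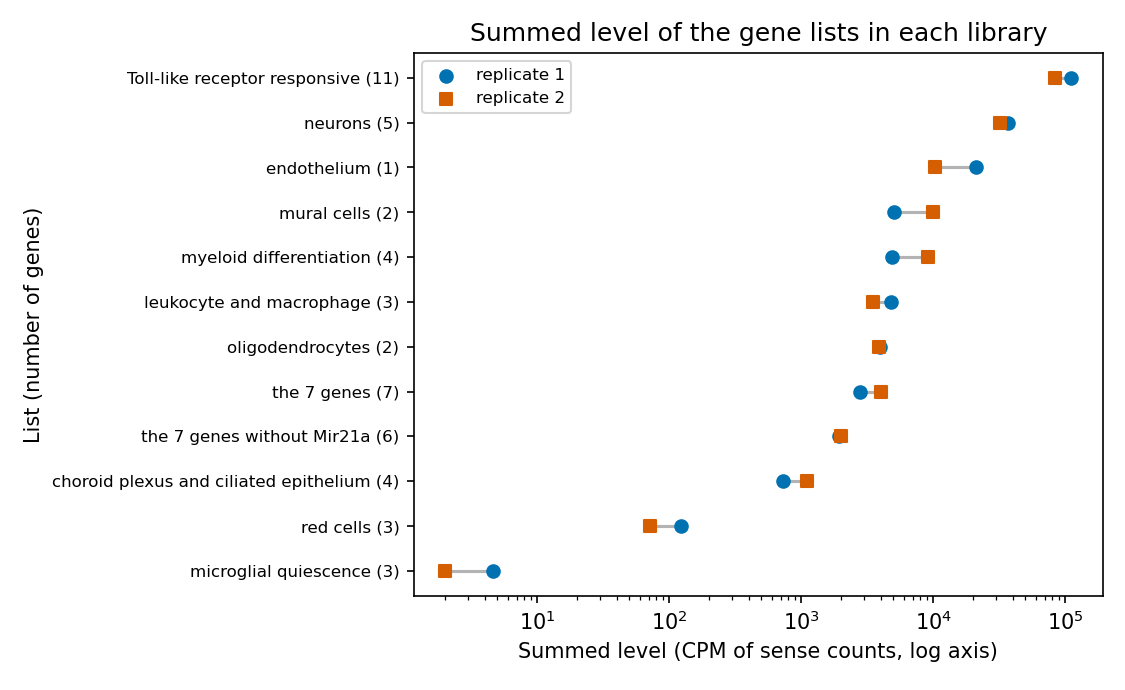
Summed level of each list in CPM on a log axis, with circles for replicate 1, squares for replicate 2 and the number of genes measured in brackets. The 7 genes stand at 2792 and 4052 CPM, and without Mir21a at 1941 and 2008 CPM, by their means between the choroid plexus and the oligodendrocyte lists.

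The gene outside the 7 with the most similar level was sought among 402 expressed genes, as the smallest Euclidean distance in log2(CPM + 1) over the 2 libraries. Mir142 lay nearest to Mir9-3, a neural miRNA gene at 57.9 and 102.2 CPM, with a distance of 0.15. Mir21a lay nearest to Mir7b, at 1086 and 1967 CPM, with a distance of 0.36, and Mir155 to Mir7-1, at 35.6 and 54.5 CPM (0.29). The nearest gene to Mir150 was Mir181b-2 (0.16), to Mir146 Mir1843a (0.16), to Mir223 Mir582 (0.23) and to Mir146b Mir1982 (0.11). With 2 libraries the distance combines the level and the difference between the libraries. Mir9-3, Mir7-1 and Mir181b-2 are each named as a copy among several, and reads that fit several copies enter no gene's count. These neighbours are thus alike in counted level and need not be alike in the amount of mature miRNA.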

How the data were processed

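The deposited tables hold raw read counts for each miRNA gene, on mm10 with GENCODE M21 as the deposited file descriptions state. The aligner and the counter were not given in the sources used here, and CAST reads that differ from the reference may have been lost. Of the 3 count columns, 1 ignores strand, and of the others the larger in total was taken as sense. The 4 lines that name no gene (65.2% and 65.1% of reads) stayed out of totals. Genes with 20 or more counts over both libraries entered a two-sided exact binomial test (scipy 1.17.1) on TMM totals (edgeR 4.0.16), with Benjamini-Hochberg adjustment at 0.05. Ratios add 0.5 to each count. The test was tried on simulated counts that held counting noise and set fold changes alone. This trial cannot show how the test behaves with a further spread between libraries. DESeq2 1.42.0 size factors and edgeR's exact test with a common dispersion were alternatives.

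The 7 genes were named by symbol. Each of the 10 further lists was given by its counts and highest gene, and neighbours by distance in level. Members and lists were chosen with earlier results of these data known. The red cell list also named Mir486b, which matched no symbol. P-values measure counting noise between 2 libraries, not animals.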

Additional observations from a re-analysis of the deposited data

Results flagged for a closer look

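Among the 7 genes and the gene opposite Mir142, antisense counts exceeded 3 at Mir142b and Mir21a. Mir142b had 270 antisense counts in replicate 1 and 440 in replicate 2, equal to the sense counts of Mir142 on the opposite strand, so they are the same reads counted again. Mir21a had 5 antisense counts in replicate 1 and 0 in replicate 2, beside 4393 and 9118 sense counts. Of the 7 genes, 5 had no antisense count in either library, and Mir150 had 2 in replicate 1.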

How the results depend on the processing

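The summed level of the 7 genes, 3422 ± 891 CPM (SD, n = 2), moved to 1193 CPM with all reads as the denominator and to 7712 with the 10 highest genes left out of the total, since the denominators differ by construction. Without 1 replicate it ran from 2792 to 4052 CPM, and the number of genes expressed was 7 each time. At 5 CPM 6 genes were expressed, without Mir146b, and without strand 6, without Mir142. The binomial test passed 294 of 438 genes and 5 of the 7. With edgeR's exact test and a common dispersion it was 2 of 407 genes (26 at an unadjusted p under 0.05) and 0 of the 7, a test that assumes the spread between the libraries in place of counting noise. The ratio of Mir150 turned from -0.03 to 0.048 with DESeq2 size factors and to 0.038 in edgeR, and passed as lower in replicate 2 with total counts (-0.16, adjusted p = 1.45e-08, exact binomial test). The ratios of library to library cannot be had without a replicate. No paired analysis was possible because the series has 1 group. Low counts limit the precision for Mir146b (24 and 26 counts), Mir511 (5 and 11), Mir147 (12 and 4) and the miR-124 genes (24 and 9 in all).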
